A study of Rattus norvegicus with 27 samples.

Results

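The genes described here are 63 of 14217 genes measured in cultured rat oligodendrocyte progenitor cells (OPCs). Their signal at 8 h was higher with thyroid hormone T3 and interferon γ (IFNγ) than with T3 alone. By 96 h the difference was small or reversed. They were selected on measured values. Each gene was read from its brightest probe set, by the average of the 27 arrays, and a gene was a member if the mean log2 signal of T3+IFNγ cultures was at least 0.8 above that of T3 cultures at 8 h and at most 0.5 above it at 96 h. The 8 h and 96 h differences are therefore given as a description, with no test, and the question they raise is how the difference was lost, through a lower signal with T3+IFNγ, or through a higher signal with T3 alone. The limit at 8 h was met by 357 genes, of which the other 294 were still more than 0.5 higher at 96 h. These 294 genes serve as the comparison set.

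The OPCs came from cerebral cortices of rat pups on postnatal days 4 to 6 and were selected with magnetic beads against A2B5, a surface ganglioside of glial progenitors. They were expanded with PDGF (20 ng/mL), the mitogen that keeps OPCs dividing. The T3+IFNγ group received thyroid hormone T3 (10 nM), which starts differentiation into oligodendrocytes, together with IFNγ (10 ng/mL) for 8, 24, 48 or 96 h. The T3 group received T3 alone for the same times, and the PDGF group was kept undifferentiated at 0 h. Each of the 9 groups had 3 arrays, read as 3 donors from their labels, and no label says how many pups were pooled for a donor. PDGF arrays exist at 0 h only, so that T3 against PDGF also holds the loss of PDGF and the time in culture. In these bulk cultures, fewer cells of a type and less RNA per cell cannot be told apart.

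IFNγ is a cytokine of activated T cells and natural killer cells. It binds a receptor coupled to the kinases JAK1 and JAK2. Their signal acts on genes through the GAS element in promoters, and the transcription factor IRF1, which IFNγ induces, acts on the related ISRE. Many genes of this pathway, such as those of antigen presentation, stay on as long as the cytokine is present, while immediate early genes are known for short bursts of transcription.

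The signals were RMA values on the log2 scale, on which a difference of 1 is 2-fold, and ran from 2.28 to 14.49 with a median of 5.99. The medians of single arrays lay between 5.95 and 6.03. The array of donor 2 with T3+IFNγ at 8 h, which enters the choice of members, had a 3' over 5' difference of Gapdh, a sign of RNA quality, of 0.37, against −0.26 to 0.11 on the other 26 arrays. That of beta-actin was 1.34 on this array and 1.47 on the array of donor 2 with T3+IFNγ at 24 h, which enters the 24 h test, against 0.76 to 1.16 on the others. Without the 8 h array 57 of the 63 genes were still members among 71, and those lost were Ap1s3, Paqr4, Pitpnb, Rap1gds1, Sfrp1 and Sh2d5. OPC genes differed in brightness. Pdgfra had a mean of 12.94 in T3+IFNγ cultures and 12.91 in T3 cultures at 8 h, and 12.74 with PDGF. In the same order the means were 12.38, 12.15 and 12.30 for Ptprz1 and 12.60, 12.70 and 12.67 for Olig1. They were 9.29, 9.15 and 8.92 for Sox10, 7.44, 8.10 and 8.89 for Cspg4, and 7.26, 7.93 and 7.31 for Olig2.

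The loss came mainly from a fall with T3+IFNγ in 32 members and mainly from a rise with T3 alone in 25, with both routes shared in the other 6. The loss is the 8 h difference minus the 96 h difference. It is the sum of 2 parts, the mean with T3+IFNγ at 8 h minus that at 96 h, and the mean with T3 at 96 h minus that at 8 h, and a route was named when its part made up at least 66.7% of the sum. The signal with T3+IFNγ was lower at 96 h than at 8 h in 45 members (median of the 63, 0.73), and the signal with T3 was higher at 96 h than at 8 h in 42 (median 0.37). In the 32 fall members the median fall with T3+IFNγ was 1.26, while with T3 the signal itself was lower at 96 h than at 8 h in 21 of them and changed by less than 0.5 in 25. In the 25 rise members the median rise with T3 was 1.46, and the signal with T3+IFNγ was also higher at 96 h than at 8 h in 18. The share of the loss that came by the fall ran from −264.6% (Adamts4, where both signals climbed) to 415.5% (Emp1, where both dropped), with a median of 75.4%.

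**Figure D1:**
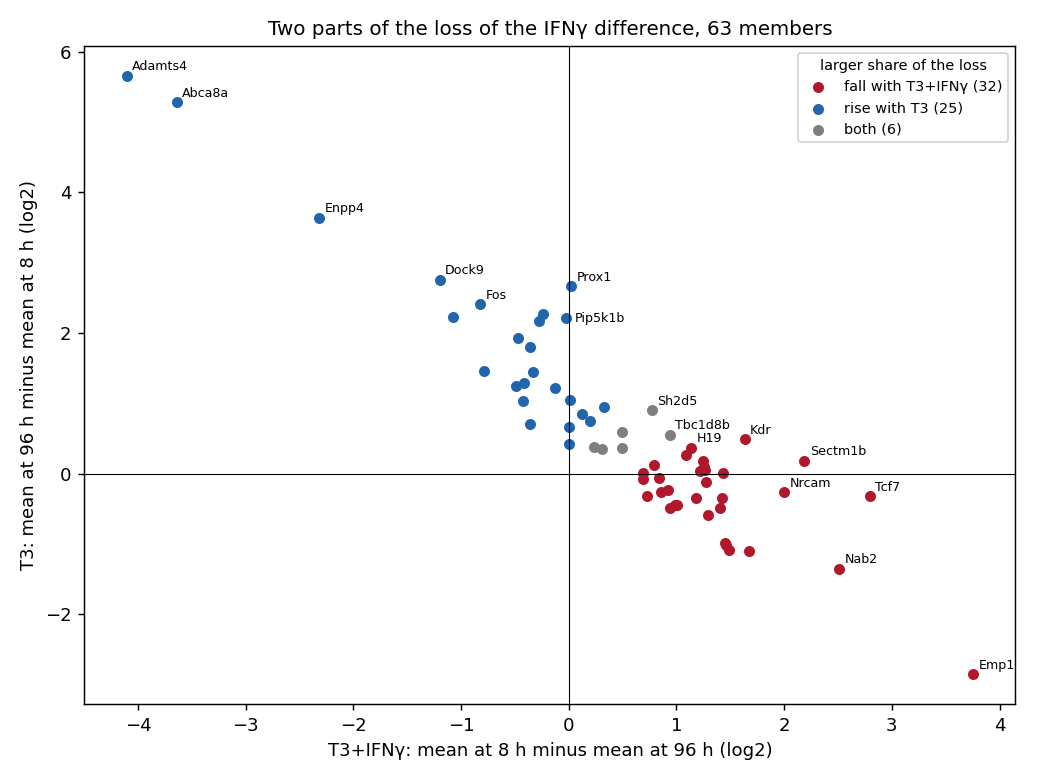
For each of the 63 members, the x axis gives the mean log2 signal with T3+IFNγ at 8 h minus that at 96 h, and the y axis the mean with T3 at 96 h minus that at 8 h, coloured by the route that made up at least 66.7% of the loss. The 32 fall members lie to the right, the 25 rise members at the top left with Adamts4 at 5.66 on the y axis, and the 6 shared ones between them.

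The 8 h and 96 h levels define the routes, so of the changes from PDGF only those at 24 and 48 h are outside that definition. Over the 32 fall members the median change from PDGF with T3+IFNγ was 1.18, 0.46, 0.32 and 0.09 at 8, 24, 48 and 96 h, and that with T3 stayed between −0.31 and −0.03. Over the 25 rise members the median change with T3+IFNγ was 1.38, 1.47, 1.56 and 1.94, and that with T3 was 0.14, 0.70, 1.17 and 1.56. The high 8 h level with T3+IFNγ and the later climb with T3 follow in part from how the members and the route were chosen. Single rise members differed from these medians. With T3+IFNγ the mean of Dock9 went from 8.03 at 8 h to 9.52 at 24 h, and that of Pip5k1b from 8.76 to 8.44. Over the 294 genes of the comparison set the median change with T3+IFNγ was between 1.67 and 1.94 at all 4 times, and with T3 between −0.19 and 0.00.

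**Figure D2:**
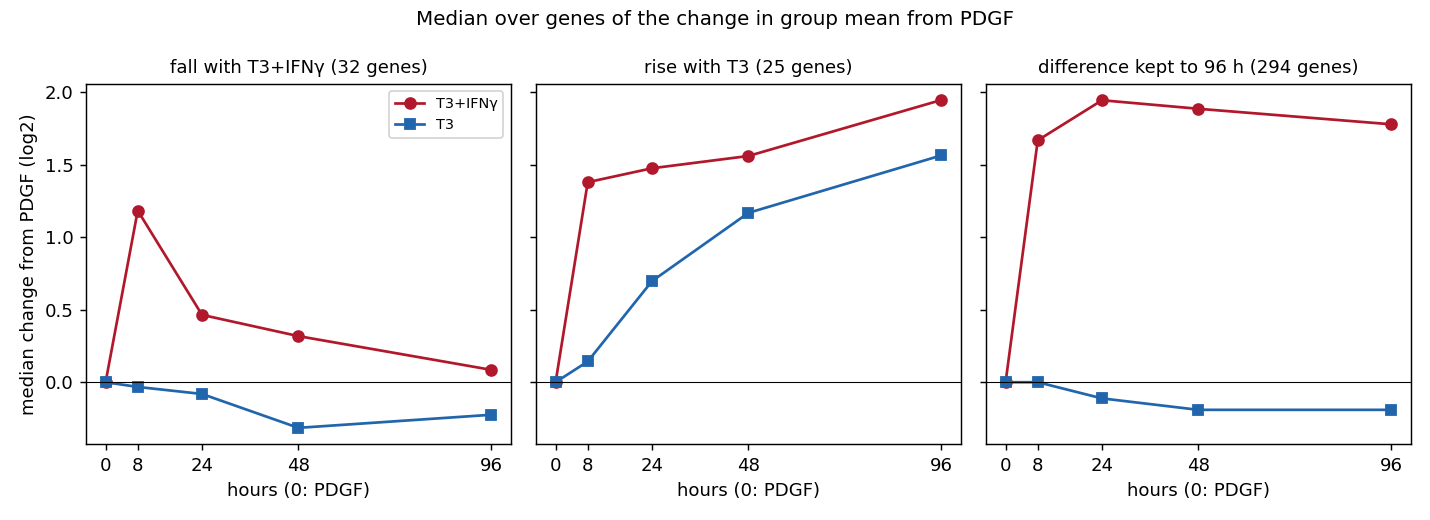
Lines give the median over genes of the change in group mean from PDGF (log2, y axis) at 0, 8, 24, 48 and 96 h (x axis), for T3+IFNγ and for T3, in the 32 fall members, the 25 rise members and the 294 genes whose difference was kept. With T3+IFNγ the fall members went back to 0.09 at 96 h, and with T3 the rise members reached 1.56.

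The median IFNγ difference of the 63 members was 1.11 at 8 h, 0.70 at 24 h, 0.63 at 48 h and 0.26 at 96 h, against 1.62, 2.01, 2.05 and 1.78 in the comparison set and between −0.05 and −0.02 over all 14217 genes. At 8 h it was at least 2-fold in 40 members. It was largest at 8 h in 47 members, at 24 h in 8 and at 48 h in 8, and it became smaller at every step in 15. It was already at or under 0.5 at 24 h in 22 members, at 48 h in 31, and at both times in 17. At 96 h it was below 0 in 17 members and below −0.5 in 5, which were Prox1, Abca8a, Sh2d5, Tmem108 and Pla2g4a. Many members were dim: in 25 the mean with T3 at 8 h was under 5.99, the median of all values, and in 11 the highest of the 9 group means was under it.

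**Figure D3:**
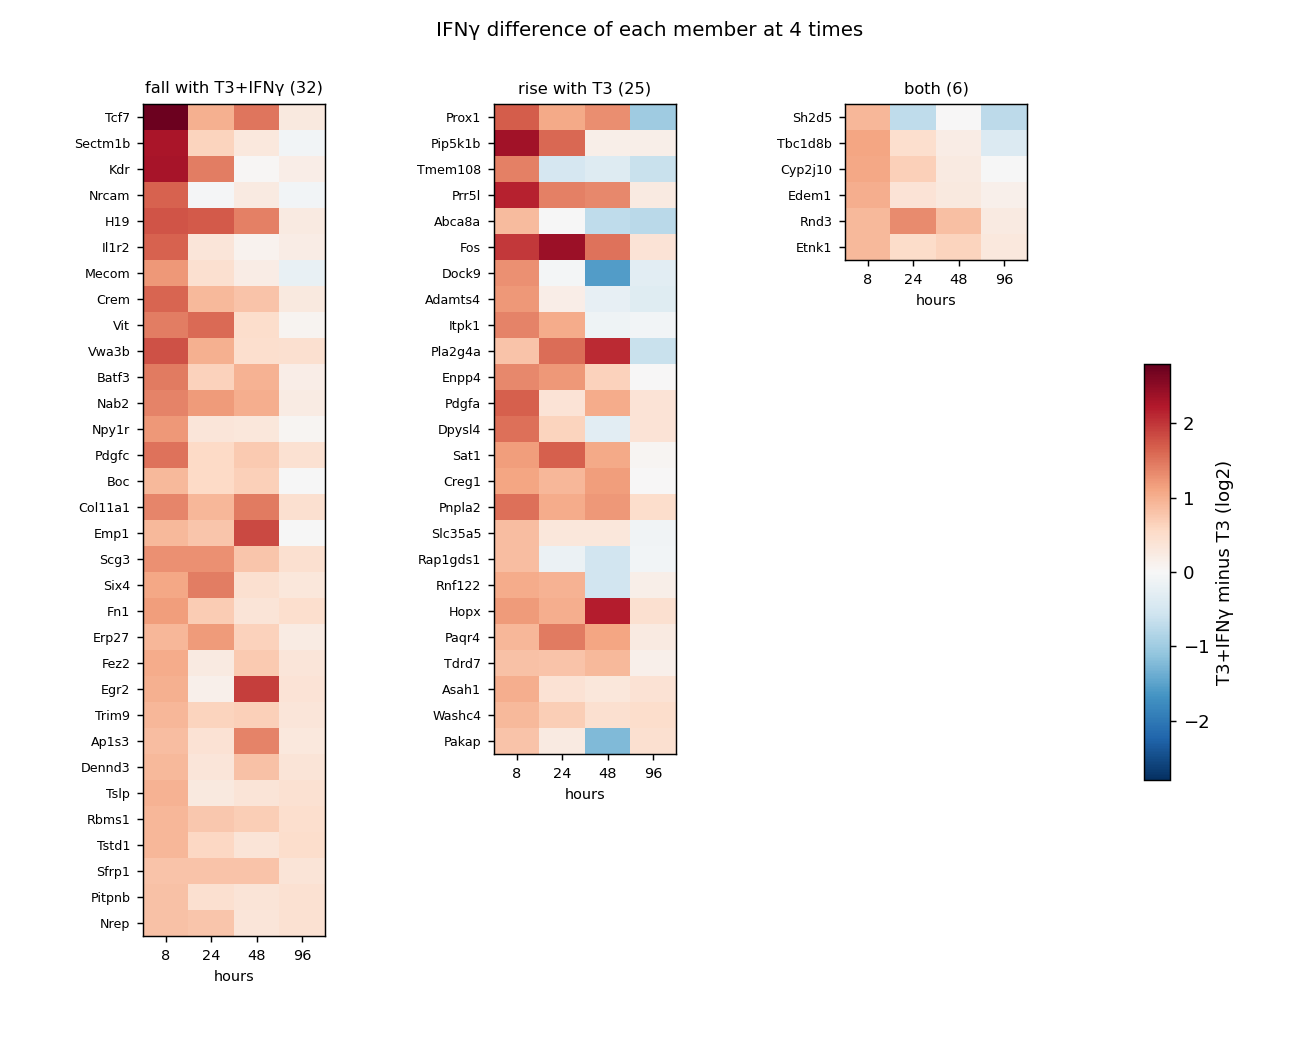
Colour gives the mean log2 signal with T3+IFNγ minus that with T3 at 8, 24, 48 and 96 h (columns) for each of the 63 members (rows), grouped by route and ordered by the size of the loss. All 63 are red at 8 h by the choice of members, and Prox1, Tmem108, Abca8a and Pla2g4a of the rise route and Sh2d5 of the shared one are the bluest at 96 h.

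RefSeq promoters (assembly GRCr8, 250 bases before to 50 after the annotated start, read along the gene's strand) were found for 50 of the 63 members, 232 of the 294 genes of the comparison set and 27457 genes in all. The GAS motif TTCNNNGAA, which reads the same on both strands, was in 7 of the 50 (14%), in 17.2% of the comparison set and in 8.68% of all promoters. The ISRE core GAAANNGAA on either strand was in 5 of the 50 (10%), in 29.7% of the comparison set and in 9.50% of all. The AP-1 motif TGANTCA was in 8%, 9.05% and 7.33%, and the NF-kB motif in 16%, 14.7% and 7.60%. Members with the ISRE core were Boc, Hopx, Itpk1, Mecom and Washc4. A match is a run of letters and not a shown binding site. The 8 GAS matches of the members are printed because they are the element of the pathway that the treatment acts on, each with up to 20 bases on either side and the motif in capitals.
Adamts4, chr13:86202870-86202918 (+): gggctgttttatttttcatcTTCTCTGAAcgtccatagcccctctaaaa
Batf3, chr13:105220534-105220582 (+): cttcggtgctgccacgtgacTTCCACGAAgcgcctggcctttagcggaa
Emp1, chr4:169944023-169944071 (+): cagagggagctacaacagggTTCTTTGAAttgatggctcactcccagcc
Emp1, chr4:169944125-169944173 (+): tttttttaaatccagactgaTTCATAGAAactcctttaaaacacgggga
Pdgfa, chr12:20759380-20759415 (+): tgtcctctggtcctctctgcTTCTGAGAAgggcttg
Pitpnb, chr12:50958069-50958117 (-): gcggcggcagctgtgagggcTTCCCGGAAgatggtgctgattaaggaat
Sat1, chrX:44007939-44007987 (+): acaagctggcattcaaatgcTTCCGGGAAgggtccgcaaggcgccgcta
Vit, chr6:22230994-22231042 (-): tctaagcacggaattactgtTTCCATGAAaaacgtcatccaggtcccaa
Relative to the start, the first base of the motif lies at −121 in Adamts4, −228 in Batf3, −187 and −85 in Emp1, 34 in Pdgfa, 14 in Pitpnb, −130 in Sat1 and −110 in Vit. Of the 7 genes, Batf3, Emp1, Pitpnb and Vit lost the difference by the fall and Adamts4, Pdgfa and Sat1 by the rise.

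Transcription factors and their partners were 10 of the members. Tcf7, which encodes TCF-1, a nuclear partner of β-catenin in Wnt signalling, had the largest 8 h difference of the 63 members, 2.75. Its log2 signals at 8 h were 5.84, 6.74 and 6.84 in T3+IFNγ cultures of donors 1, 2 and 3, against 3.66, 3.87 and 3.64 in T3 cultures, and at 96 h they were 3.60, 3.60 and 3.83 with T3+IFNγ against 3.40, 3.40 and 3.40 with T3. All 3 T3+IFNγ arrays were above all T3 arrays at both times, so that a small difference was left while the signal with T3+IFNγ came down by 2.79. At 96 h both groups were near the bottom of the scale, where small differences are poorly resolved. At 24 h the difference was 0.99 ± 0.22 (SE, limma adjusted p = 0.00324) and at 48 h 1.499 ± 0.22 (adjusted p = 2.97e-05), and the 24 h call was lost without donor 2 (adjusted p = 0.143) or donor 3 (0.121).

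Fos, the AP-1 subunit known as an immediate early gene, went the other way. It had 10.21, 9.50 and 9.82 in T3+IFNγ cultures at 8 h, against 8.37, 7.50 and 7.71 in T3 cultures, and 10.64, 10.49 and 10.86 with T3+IFNγ against 10.30, 10.14 and 10.37 with T3 at 96 h. With PDGF the signals were 9.60, 9.24 and 9.31, so that the T3 cultures were below the PDGF cultures at 8 h and above them at 96 h, and the T3+IFNγ cultures did not fall. Fos was higher with IFNγ by 2.41 ± 0.22 at 24 h and 1.51 ± 0.22 at 48 h (SE, limma adjusted p = 2.41e-08 and 2.63e-05). A dimmer probe set of Fos had differences of −0.02, −0.20, −0.15 and 0.004 at the 4 times.

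Egr2, a zinc finger factor of the early growth response family that drives myelination in Schwann cells, and Nab2, a corepressor of the EGR proteins, lost the difference by the fall. Egr2 had 5.05, 6.50 and 6.96 in T3+IFNγ cultures at 8 h, against 4.78, 5.17 and 5.56 in T3 cultures and 8.93, 9.18 and 8.85 with PDGF. The groups overlapped at 8 h, and every T3+IFNγ and T3 array of that time lay below the PDGF arrays. The Egr2 difference was 0.15 at 24 h and 1.94 ± 0.38 at 48 h (SE, limma adjusted p = 8.70e-04, and 0.0587 without donor 3). A dimmer probe set of Egr2 had differences of −0.04, 0.01, 0.20 and −0.07 at the 4 times. Nab2 had 9.07, 9.47 and 9.20 in T3+IFNγ cultures at 8 h, against 7.37, 8.14 and 8.05 in T3 cultures and 9.70, 10.02 and 10.01 with PDGF. Every T3+IFNγ and T3 array of Nab2 lay below its PDGF arrays. In 5 members, Nab2 among them, the highest of the 9 group means was that of PDGF. At 96 h Nab2 had 6.55, 6.80 and 6.86 with T3+IFNγ against 6.07, 6.80 and 6.64 with T3. Both groups dropped, T3+IFNγ by 2.51 and T3 by 1.35, and they overlapped at 96 h. Nab2 was higher by 1.18 at 24 h (limma adjusted p = 7.02e-04) and by 1.02 at 48 h (adjusted p = 0.00228, and 0.111 without donor 3).

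Prox1, a homeobox factor of lymphatic and neural fate, showed the largest reversal. Its signals at 8 h were 9.44, 8.94 and 9.17 in T3+IFNγ cultures, against 8.04, 7.25 and 7.16 in T3 cultures. At 96 h they were 8.94, 9.13 and 9.41 with T3+IFNγ, against 10.36, 10.04 and 10.08 with T3. The groups did not overlap at either time, and their order was turned round, with nearly the whole loss of 2.69 coming from T3 cultures. At 24 and 48 h Prox1 was still higher with IFNγ, by 1.05 and 1.29 (limma adjusted p = 0.0016 and 1.44e-04), and the 24 h call was lost without donor 2 (adjusted p = 0.0598). Another probe set, with a mean of 4.23, had differences between −0.13 and 0.02.

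Crem, a factor of the cAMP response, was the member with the most probe sets that met the same limits, 3 of 5 others. Its signals were 10.20, 9.49 and 9.84 in T3+IFNγ cultures at 8 h, against 8.35, 8.14 and 8.14 in T3 cultures, and 8.65, 8.66 and 8.96 with T3+IFNγ against 8.50, 8.36 and 8.56 with T3 at 96 h. Batf3, an AP-1 family factor known from dendritic cells, had 6.34, 6.83 and 7.57 with T3+IFNγ against 5.50, 5.50 and 5.38 with T3 at 8 h, and 5.79, 5.88 and 5.41 with T3+IFNγ against 5.64, 5.68 and 5.18 with T3 at 96 h. Both were higher with IFNγ at 24 h (0.90 and 0.64, limma adjusted p = 0.00872 and 0.0429) and at 48 h (0.80 and 0.97, adjusted p = 0.0168 and 0.00156). Those calls were lost without single donors. For Crem the adjusted p without donor 2 was 0.108 at either time, and without donor 3 it was 0.119 at 24 h and 0.263 at 48 h. For Batf3 it was 0.187, 0.192 and 0.0513 at 24 h without donor 1, 2 or 3, and 0.0599 at 48 h without donor 2.

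The other transcription factors were dimmer or more variable. Six4, a homeobox factor, had 4.91, 5.55 and 5.30 in T3+IFNγ cultures at 8 h, against 4.43, 4.05 and 4.01 in T3 cultures, and its difference was largest at 24 h (1.44, limma adjusted p = 1.40e-07) and 0.46 at 48 h (adjusted p = 0.0348, and 0.336 without donor 2 or 0.214 without donor 3). Mecom, the zinc finger factor EVI1, had 6.49, 5.52 and 5.62 with T3+IFNγ against 4.67, 4.63 and 4.69 with T3 at 8 h and no call at 24 or 48 h (0.45 and 0.21). A dimmer probe set of Mecom had a difference of −0.07 at 8 h. Hopx, a homeodomain-only protein, had its largest difference at 48 h, 2.20 ± 0.59 (SE, limma adjusted p = 0.0122, and 0.106 without donor 2 or 0.105 without donor 3), where the T3 signals were 5.97, 7.54 and 7.55 and donor 1 stood apart.

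Growth factors, cytokines and other secreted proteins were 6 of the members. Pdgfa, which encodes the ligand of the OPC receptor PDGFRα, had 8.79, 8.50 and 8.40 in T3+IFNγ cultures at 8 h, against 7.31, 6.80 and 6.57 in T3 cultures and 6.99, 6.60 and 6.66 with PDGF. At 48 h it had 10.61, 10.03 and 10.43 with T3+IFNγ, against 9.20, 9.23 and 9.51 with T3, and at 96 h 8.42, 8.11 and 8.17 with T3+IFNγ against 7.67, 8.07 and 7.78 with T3. No T3+IFNγ array overlapped with the T3 arrays at those 3 times, and both groups peaked at 48 h. The difference was 0.38 at 24 h (limma adjusted p = 0.385) and 1.04 at 48 h (adjusted p = 0.00437, and 0.0853 without donor 2).

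Pdgfc, another PDGF ligand, lost its difference by the fall. It had 7.83, 7.01 and 8.01 in T3+IFNγ cultures at 8 h, against 6.10, 6.02 and 6.18 in T3 cultures, and 6.19, 6.27 and 6.12 with T3+IFNγ against 5.39, 6.10 and 5.78 with T3 at 96 h, and the groups did not overlap at either time. It was higher at 48 h by 0.73 (limma adjusted p = 0.0113, and 0.12 without donor 1 or 0.0748 without donor 3). Sectm1b, a secreted and transmembrane protein, had 8.12, 7.49 and 7.52 with T3+IFNγ against 5.37, 5.46 and 5.41 with T3 at 8 h. By 24 h it was at 6.17, 5.90 and 6.10 with T3+IFNγ, against 5.53, 5.44 and 5.34 with T3 (0.62, limma adjusted p = 0.00283, and 0.134 without donor 3), and at 96 h the groups overlapped. Tslp, a cytokine of epithelia, and Sfrp1, a secreted inhibitor of Wnt ligands, had small 8 h differences of 0.98 and 0.81, and Scg3, a granin of secretory granules, had 12.27, 11.77 and 11.81 with T3+IFNγ against 10.56, 10.65 and 10.79 with T3 at 8 h and 10.64, 10.71 and 10.95 with T3+IFNγ against 10.05, 10.37 and 10.54 with T3 at 96 h. All 3 lost the difference by the fall.

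Receptors and surface proteins included Kdr, which encodes VEGF receptor 2. Its signals at 8 h were 7.22, 7.12 and 7.07 in T3+IFNγ cultures, against 5.06, 4.68 and 4.73 in T3 cultures and 4.61, 4.71 and 4.67 with PDGF. At 48 h they were 6.65, 6.10 and 5.86 with T3+IFNγ, against 6.43, 6.23 and 5.86 with T3, and at 96 h 5.69, 5.67 and 5.15 with T3+IFNγ against 5.56, 5.18 and 5.21 with T3. The T3 signal thus joined that with T3+IFNγ at 48 h, and both came down after it. The difference was 1.43 ± 0.21 at 24 h (SE, limma adjusted p = 2.68e-05) and 0.03 ± 0.21 at 48 h (adjusted p = 0.948). Kdr stood in the list of vascular and fibroblast markers, and the endothelial genes Pecam1 and Flt1 stayed at or below means of 3.76 and 4.40 in all 9 groups. A dim second probe set of Kdr, with a mean of 3.75, had differences between −0.08 and 0.09.

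Nrcam, a cell adhesion molecule of the L1 family, and Il1r2, the decoy receptor of interleukin 1, had their largest IFNγ difference at 8 h. Nrcam had 8.56, 8.65 and 8.78 in T3+IFNγ cultures at 8 h, against 6.82, 7.12 and 7.07 in T3 cultures, and 6.95, 7.39 and 7.41 with T3+IFNγ against 6.48, 7.68 and 7.67 with T3 at 24 h. Its 2 other probe sets had 8 h differences of 1.19 and 1.74 and 24 h differences of 0.06 and −0.11. Il1r2 had 5.24, 5.37 and 5.60 with T3+IFNγ against 3.66, 3.82 and 3.79 with T3 at 8 h, and 4.30, 3.91 and 4.41 with T3+IFNγ against 4.01, 3.70 and 3.86 with T3 at 24 h. Neither gene was called at 24 or 48 h, where the differences were −0.03 and 0.25 for Nrcam and 0.35 and 0.11 for Il1r2. For Il1r2 the 24 h value missed the threshold (limma adjusted p = 0.0643) and passed it with quantile normalization again (0.36, adjusted p = 0.0308) and without the T3+IFNγ array of donor 2 at 24 h (0.50, adjusted p = 0.00776). At 96 h its signals were 3.94, 4.12 and 3.85 with T3+IFNγ against 3.84, 3.80 and 3.67 with T3, a difference of 0.20 with no overlap of the groups. Both groups were then near the bottom of the scale, where small differences are poorly resolved.

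Boc, a co-receptor of hedgehog ligands, and Npy1r, a receptor of neuropeptide Y, lost differences of 0.92 and 1.22 by the fall. For Npy1r donor 1 stood apart, with 4.13 in the T3+IFNγ culture against 3.53 in the T3 culture at 8 h, while donors 2 and 3 had 5.63 and 5.60 with T3+IFNγ against 3.98 and 4.21 with T3. Boc was not called without the donors in the model (0.56 and 0.66 at 24 and 48 h, limma adjusted p = 0.292 and 0.174), and with donors as blocks the adjusted p was 0.014 and 0.00366. Tmem108, a transmembrane protein, had 7.65, 7.28 and 6.71 in T3+IFNγ cultures at 8 h, against 6.03, 5.55 and 5.86 in T3 cultures, and 7.58, 7.50 and 7.29 with T3+IFNγ against 7.93, 8.28 and 8.05 with T3 at 96 h. The groups were separate at both times and in opposite order, and the differences of −0.47 and −0.37 at 24 and 48 h were not called.

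A further 18 members encode enzymes of phosphoinositide and lipid signalling, regulators of small GTPases and trafficking, adaptors and ubiquitin ligases. Pip5k1b, a kinase that makes PI(4,5)P2, had 8.57, 8.90 and 8.81 in T3+IFNγ cultures at 8 h, against 5.77, 6.75 and 6.69 in T3 cultures. At 24 h the signals were 8.46, 8.59 and 8.29 with T3+IFNγ, against 6.69, 7.03 and 6.81 with T3, at 48 h 8.30, 7.95 and 7.72 with T3+IFNγ against 7.93, 7.95 and 7.61 with T3, and at 96 h 8.67, 8.89 and 8.80 with T3+IFNγ against 8.57, 8.59 and 8.70 with T3. The T3+IFNγ signal was as high at 96 h as at 8 h, and the T3 signal met it from 48 h on. The difference was 1.60 ± 0.19 at 24 h (SE, limma adjusted p = 1.27e-06) and 0.16 ± 0.19 at 48 h (adjusted p = 0.631). Itpk1, an inositol phosphate kinase, had differences of 1.39, 1.03, −0.11 and −0.07 at the 4 times (limma adjusted p = 0.00115 at 24 h and 0.781 at 48 h), but its dimmer probe set had 0.06 at 8 h.

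Prr5l, a protein bound to the kinase complex mTORC2, had 7.61, 7.08 and 7.08 in T3+IFNγ cultures at 8 h, against 5.14, 5.19 and 4.97 in T3 cultures. The T3 signal was still 5.60, 5.44 and 5.37 at 48 h, and at 96 h the signals were 7.51, 7.37 and 7.72 with T3+IFNγ, against 7.39, 7.15 and 7.28 with T3. Most of the loss thus came after 48 h, and the T3 cultures were higher by 2.17 at 96 h than at 8 h. Prr5l was higher with IFNγ by 1.42 at 24 h and 1.35 at 48 h (limma adjusted p = 3.15e-04 and 4.50e-04).

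Pla2g4a, the cytosolic phospholipase A2 that frees arachidonic acid, entered close to the 8 h limit with a difference of 0.81. Its signals at 8 h were 6.43, 6.15 and 7.62 with T3+IFNγ, against 5.48, 5.26 and 7.03 with T3, and donor 3 was the highest in both groups, so that the groups overlapped. At 48 h they were 6.59, 5.73 and 7.85 with T3+IFNγ against 4.50, 4.25 and 5.16 with T3, and at 96 h 7.05, 6.45 and 7.79 with T3+IFNγ against 7.73, 7.74 and 7.69 with T3. The difference was 1.57 ± 0.57 at 24 h (SE, limma adjusted p = 0.0746, and 9.19e-04 with donors as blocks) and 2.09 ± 0.57 at 48 h (adjusted p = 0.0124, but 0.0866 without donor 1 and 0.0596 without donor 2). At 96 h the T3+IFNγ arrays of donors 1 and 2 were below all T3 arrays, and that of donor 3 was above them.

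Dock9, an activator of the GTPase Cdc42, was higher with IFNγ at 8 h and lower at 48 h. It had 8.08, 8.10 and 7.92 in T3+IFNγ cultures at 8 h, against 6.997, 6.61 and 6.66 in T3 cultures and 5.75, 5.75 and 6.22 with PDGF. At 24 h the signals were 9.65, 9.57 and 9.32 with T3+IFNγ, against 9.90, 9.36 and 9.45 with T3, and at 48 h 8.65, 9.04 and 9.02 with T3+IFNγ against 10.74, 10.42 and 10.24 with T3. The difference at 48 h was −1.57 ± 0.18 (SE, limma adjusted p = 1.15e-06), with no overlap of the groups. Rap1gds1, a chaperone and exchange factor of small GTPases, and Pakap, which joins paralemmin and A-kinase anchor sequences, were also lower with IFNγ at 48 h. Pakap had 9.18, 8.35 and 8.62 with T3+IFNγ at 48 h, against 9.998, 9.97 and 9.89 with T3, a difference of −1.24 ± 0.22 (limma adjusted p = 3.28e-04, and 0.0674 without donor 2). Rap1gds1 had 11.05, 10.996 and 11.23 with T3+IFNγ against 11.55, 11.72 and 11.65 with T3, a difference of −0.55 ± 0.11 (adjusted p = 8.88e-04, and 0.091 without donor 2). Dimmer probe sets of these 3 genes had 8 h differences between −0.03 and 0.10.

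Ap1s3, a clathrin adaptor subunit, had its largest difference at 48 h, 1.40 (limma adjusted p = 9.17e-04, and 0.0715 without donor 3). Fez2, a kinesin adaptor, had 1.03 at 8 h, 0.25 at 24 h and 0.74 at 48 h (adjusted p = 1.94e-04 at 48 h). Rnd3, a GTPase that opposes RhoA, was higher by 1.32 at 24 h (limma adjusted p = 4.06e-05), and its 2 other probe sets had 0.90 and 1.09 there. At 48 h it was higher by 0.84 (adjusted p = 0.00376, and 0.0988 without donor 2 or 0.129 without donor 3). Washc4, a subunit of the WASH complex on endosomes, Etnk1, an ethanolamine kinase, and Pitpnb, a phosphatidylinositol transfer protein, had 8 h differences between 0.83 and 0.92 and were called higher at 24 h (0.70, 0.52 and 0.44, limma adjusted p = 3.08e-06, 7.08e-04 and 0.00991, the last lost without donor 2, 0.136, or donor 3, 0.122). Dennd3, an activator of Rab GTPases, was called at 48 h (0.81, limma adjusted p = 9.95e-06), and at 24 h it was called only under some settings (0.33, adjusted p = 0.052, and 0.044 with donors as blocks). Tbc1d8b, a likely inactivator of Rab GTPases, Sh2d5, an SH2 protein, and Rnf122, a ubiquitin ligase, were called at neither time, but Rnf122 was called at 24 h with donors as blocks (0.97, adjusted p = 0.0135, and 0.08 without blocks) and without donor 1 (1.21, adjusted p = 2.44e-05). Sh2d5 had 3.71, 5.58 and 4.97 with T3+IFNγ at 8 h, against 3.37, 3.98 and 4.12 with T3, and without the T3+IFNγ array of donor 2 its 8 h difference was 0.52. Trim9, a ubiquitin ligase of the brain, had differences of 0.94 at 8 h and 0.34 at 96 h.

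**Figure D4:**
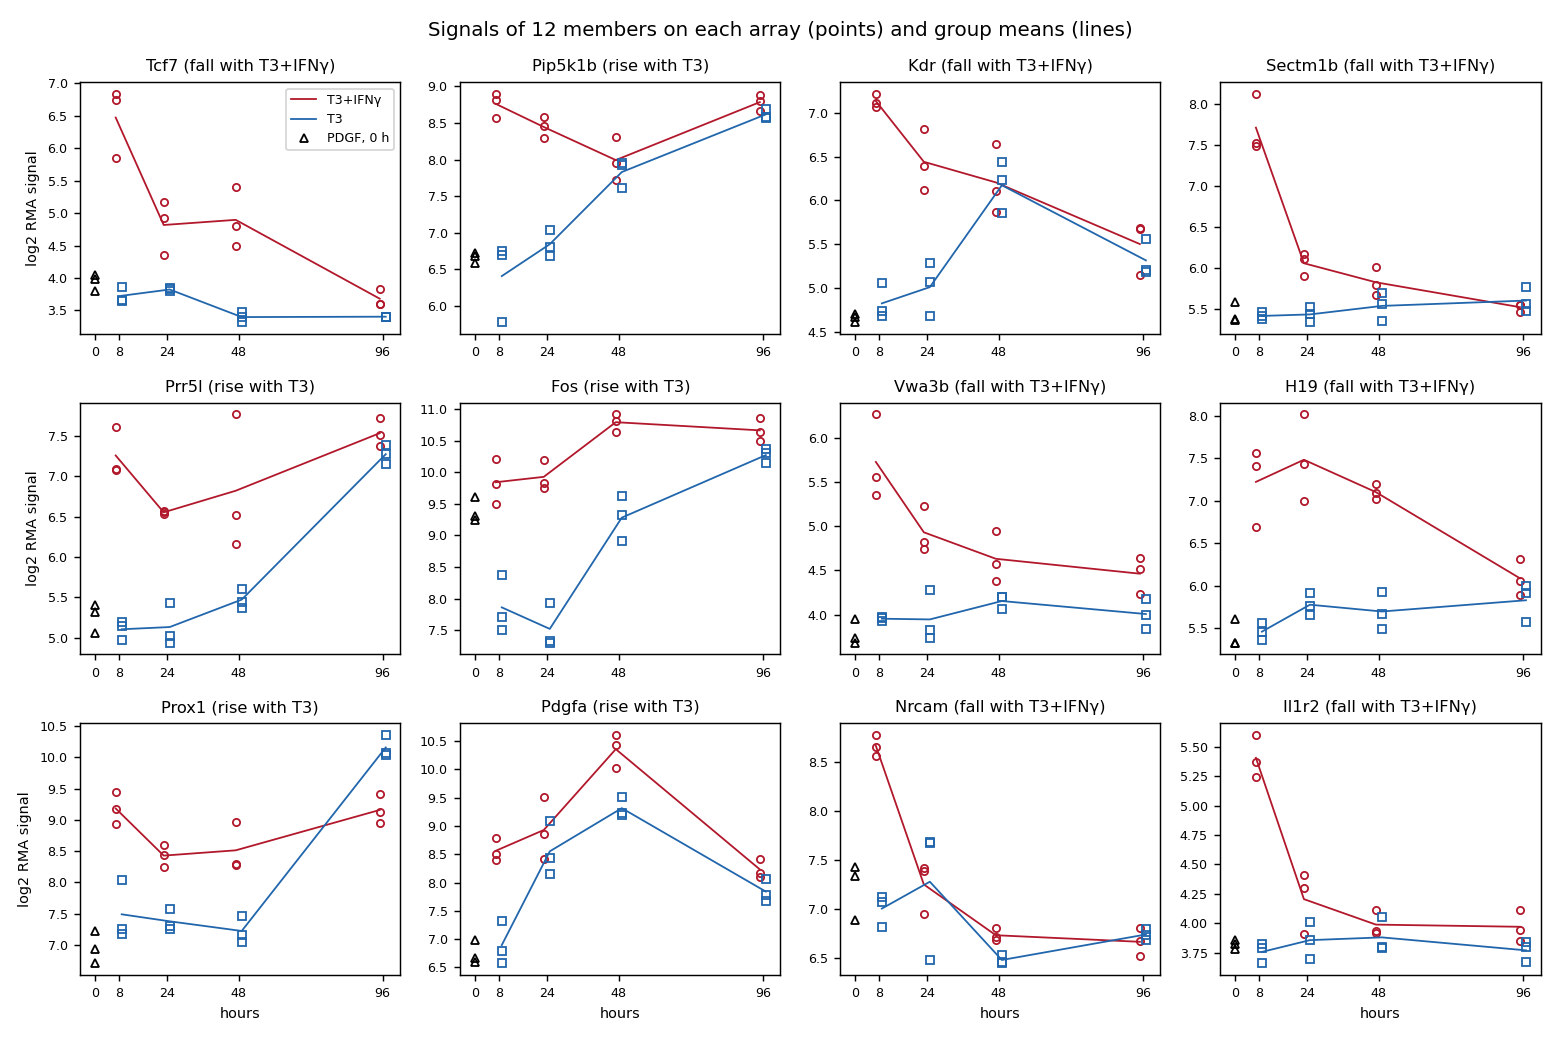
Log2 RMA signals (y axis) of the 12 members with the largest 8 h difference, at 0 h with PDGF and at 8, 24, 48 and 96 h with T3+IFNγ or T3 (x axis). Each point is 1 array and lines join the group means. In Tcf7, Sectm1b and Il1r2 the T3+IFNγ line comes down towards a nearly level T3 line, while in Pip5k1b, Prr5l and Fos the T3 line climbs to the T3+IFNγ line.

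Genes of the extracellular matrix and the cell surface were 7 members. Col11a1, a fibrillar collagen chain, had 10.46, 10.10 and 9.93 in T3+IFNγ cultures at 8 h, against 9.15, 8.64 and 8.61 in T3 cultures, and 8.65, 8.85 and 8.76 with T3+IFNγ against 8.04, 8.44 and 8.46 with T3 at 96 h. It was still higher at 48 h, by 1.45 (limma adjusted p = 3.79e-06), and another probe set of it kept a difference of 1.01 at 96 h. Fn1, fibronectin, had 7.40, 7.36 and 7.09 with T3+IFNγ against 6.03, 6.09 and 6.19 with T3 at 8 h and 5.92, 5.93 and 6.13 with T3+IFNγ against 5.81, 5.32 and 5.43 with T3 at 96 h. Vit, the matrix protein vitrin, had its largest difference at 24 h (1.58, limma adjusted p = 4.50e-06) and 0.50 at 48 h (adjusted p = 0.0981). These 3 genes lost it by the fall.

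Emp1, an epithelial membrane protein, had the largest fall in both groups. It had 7.60, 8.32 and 8.50 in T3+IFNγ cultures at 8 h, against 6.61, 7.42 and 7.70 in T3 cultures, with an overlap that came from donor 1. At 48 h the signals were 7.18, 5.78 and 6.21 with T3+IFNγ against 4.42, 4.87 and 4.31 with T3, and at 96 h 4.37, 4.26 and 4.52 with T3+IFNγ against 4.56, 4.41 and 4.19 with T3. The difference was 1.86 ± 0.37 at 48 h (SE, limma adjusted p = 0.00101) and −0.01 at 96 h, where both groups were near the bottom of the scale. The other probe set of Emp1 had 0.09 at 8 h.

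Adamts4, a metalloproteinase that cleaves aggrecan, Enpp4, an ectonucleotidase, and Abca8a, a lipid transporter, climbed most in the T3 cultures. Adamts4 had 8.18, 7.38 and 7.13 in T3+IFNγ cultures at 8 h, against 7.21, 5.999 and 5.83 in T3 cultures, and 11.55, 11.66 and 11.79 with T3+IFNγ against 12.003, 12.08 and 11.92 with T3 at 96 h. Abca8a had 7.22, 6.08 and 5.65 with T3+IFNγ against 5.99, 5.22 and 5.06 with T3 at 8 h, and 9.92, 9.85 and 10.10 with T3+IFNγ against 10.87, 10.67 and 10.57 with T3 at 96 h. In both genes the groups overlapped at 8 h through donor 1, each donor's own difference was positive there, and all 3 T3+IFNγ arrays were below all T3 arrays at 96 h. Neither was called at 24 or 48 h. Enpp4 had 8.48, 8.36 and 8.51 with T3+IFNγ against 7.07, 7.08 and 7.18 with T3 at 8 h and 10.56, 10.81 and 10.94 with T3+IFNγ against 10.77, 10.76 and 10.73 with T3 at 96 h, and it was higher with IFNγ at 24 h (1.22, limma adjusted p = 1.12e-06) and 48 h (0.65, adjusted p = 0.00211, and 0.0913 without donor 3).

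Metabolic enzymes and proteins of the ER and lysosome were 10 members, and most of these lost the difference by the rise. Pnpla2, the triglyceride lipase ATGL, had 8.13, 8.49 and 8.10 in T3+IFNγ cultures at 8 h, against 6.76, 6.69 and 6.65 in T3 cultures and 6.29, 6.24 and 6.04 with PDGF. At 96 h it had 8.09, 8.26 and 8.33 with T3+IFNγ against 7.78, 7.71 and 7.73 with T3, so that the T3+IFNγ signal was level while that with T3 was 1.04 higher. It was higher with IFNγ by 1.05 at 24 h and 1.22 at 48 h (limma adjusted p = 6.80e-08 and 4.78e-09).

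Sat1, the acetyltransferase that starts polyamine breakdown, was the brightest member, with 13.55, 12.89 and 12.94 in T3+IFNγ cultures at 8 h, against 12.65, 11.58 and 11.64 in T3 cultures. At 96 h both groups were at or above 13.27, with 13.39, 13.37 and 13.63 with T3+IFNγ against 13.27, 13.41 and 13.52 with T3. It was higher with IFNγ by 1.68 at 24 h (limma adjusted p = 4.97e-06) and 1.05 at 48 h (adjusted p = 0.00115, and 0.068 without donor 3). Paqr4, a membrane protein, was higher by 1.45 and 1.11 at 24 and 48 h (limma adjusted p = 8.88e-09 and 6.68e-07). Creg1, a lysosomal glycoprotein, was higher by 0.93 and 1.18 (adjusted p = 0.0142 and 0.00172, but 0.123 and 0.103 without donor 3, and 0.122 at 24 h without donor 1). Asah1, acid ceramidase, and Slc35a5, a nucleotide sugar transporter, had 8 h differences of 1.01 and 0.87 and differences between 0.32 and 0.39 at 24 and 48 h. Both were called at both times (limma adjusted p between 0.0182 and 0.0477), and no such call held without donor 2 or without donor 3.

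The ER proteins Edem1, which takes misfolded glycoproteins to degradation, and Erp27, a chaperone of the disulphide isomerase family, had 8 h differences of 1.02 and 0.94. Both other probe sets of Edem1 met the same limits, with 0.81 and 1.11 at 8 h and 0.01 and 0.28 at 96 h. Erp27 was higher by 1.18 at 24 h and 0.65 at 48 h (limma adjusted p = 7.55e-07 and 0.00129). Cyp2j10, a cytochrome P450, and Tstd1, a small sulfurtransferase-like protein, were dim, with highest group means of 4.74 and 5.70. Cyp2j10 had a difference of 0.67 at 24 h (limma adjusted p = 0.0652, and 0.00436 with donors as blocks).

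Of the remaining members, H19, an imprinted non-coding RNA, had 7.57, 7.41 and 6.69 in T3+IFNγ cultures at 8 h, against 5.45, 5.56 and 5.36 in T3 cultures. The difference was still large in the middle of the course, with 8.02, 7.43 and 6.9999 with T3+IFNγ against 5.91, 5.76 and 5.65 with T3 at 24 h (1.71, limma adjusted p = 3.20e-06) and 7.20, 7.09 and 7.02 with T3+IFNγ against 5.92, 5.67 and 5.49 with T3 at 48 h (1.41, adjusted p = 4.09e-05). At 96 h the signals were 6.31, 6.05 and 5.89 with T3+IFNγ against 5.999, 5.91 and 5.57 with T3 and overlapped. Vwa3b, a dim gene, had 6.27, 5.36 and 5.56 with T3+IFNγ against 3.97, 3.92 and 3.97 with T3 at 8 h. Dpysl4, a collapsin response mediator, climbed in both groups, with 9.15, 9.90 and 9.17 with T3+IFNγ against 8.00, 7.95 and 7.65 with T3 at 8 h and 10.54, 10.45 and 10.45 with T3+IFNγ against 10.18, 10.09 and 10.01 with T3 at 96 h. Nrep, Rbms1, an RNA-binding protein, and Tdrd7, a tudor domain protein of RNA granules, had 8 h differences between 0.82 and 0.94, and Tdrd7 was higher at 24 and 48 h by 0.80 and 0.91 (limma adjusted p = 8.92e-06 and 1.33e-06). With donors as blocks calls were gained for Nrep at 48 h (0.34, adjusted p = 0.029 with blocks and 0.0616 without) and for Rbms1 at 24 h (0.76, 0.0164 and 0.0777) and 48 h (0.68, 0.0269 and 0.104).

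The 24 h and 48 h arrays entered only the average that picked the probe set of each gene, not the differences that chose the members, and T3+IFNγ was tested against T3 there. At 24 h 36 of the 63 members were higher with IFNγ (limma, adjusted p under 0.05), against 5.96% of all genes, and 0 were lower, against 6.35% of all genes and with 0 members lower at an unadjusted p under 0.05. At 48 h 35 were higher, against 7.58% of all genes, and 3 were lower, against 8.53%. The counts of higher members were smaller without donor 2 or donor 3. At 24 h there were 22 without donor 2 and 25 without donor 3, at 48 h 22 and 20, and with each donor left out in turn 20 of the 36 calls at 24 h and 15 of the 38 calls at 48 h held. A fit without a donor has 2 arrays per group, so that a lost call cannot be credited to the donor left out. Without the T3+IFNγ array of donor 2 at 24 h, the one with the largest 3' over 5' difference of beta-actin, 30 members were higher at 24 h and 34 at 48 h, a setting chosen after seeing the data. The calls of Asah1, Dpysl4, Pitpnb, Sfrp1, Slc35a5, Trim9 and Tstd1 at 24 h were then lost and that of Il1r2 gained. In the comparison set 284 and 282 of 294 were higher at 24 and 48 h. Both times were called higher in 26 members, 24 h alone in 10, 48 h alone in 9, and 15 were called at neither time.

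Higher calls were spread over the routes, with 19 of the 32 fall members and 15 of the 25 rise members at 24 h and 18 and 15 at 48 h. The 6 largest at 48 h were Hopx (2.20), Pla2g4a (2.09), Egr2 (1.94), Emp1 (1.86), Fos (1.51) and Tcf7 (1.499), and the 3 lower ones, Dock9, Pakap and Rap1gds1, were rise members. T3+IFNγ and T3 did not overlap in 53 members at 8 h, 47 at 24 h, 46 at 48 h and 31 at 96 h. T3+IFNγ was the higher group in 53, 46, 40 and 26 of these. The difference was positive in all 3 donors in 63, 54, 49 and 36 members. These counts have no share over all genes beside them, and those at 8 and 96 h come from the arrays that chose the members. They are given as a description only.

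The IFNγ difference at 48 h was also tested against that at 24 h as an interaction. It was smaller at 48 h in 5 members, against 0.352% of all genes, and larger in 0, against 0.155% of all genes and with 4 members larger at an unadjusted p under 0.05. The 5 were Pip5k1b, Kdr, Dock9, Six4 and Pakap. Not one of the 5 calls held without donor 2 or without donor 3, and without the T3+IFNγ array of donor 2 at 24 h those of Six4 (adjusted p = 0.0819) and Pakap (0.0736) were lost.

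T3 cultures were compared with PDGF cultures at 24 and 48 h, too. At 24 h 18 members were higher with T3, against 17.1% of all genes, and 12 were lower, against 17.8%. At 48 h 19 were higher, against 17.5%, and 18 were lower, against 25.7%, with 11 lower without donor 2. Split by route, 15 of the 25 rise members were higher with T3 at 24 h and 17 at 48 h, and of the 32 fall members 2 were higher at each time, with 8 lower at 24 h and 14 at 48 h. The T3 signals at 8 and 96 h that name the route come from other arrays, but of the same donors and the same T3 course. The split by route is therefore a description and does not test the routes.

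Each treatment was also compared between 24 and 48 h. With T3+IFNγ 11 members rose over this step, against 5.44% of all genes, and 8 fell, against 9.81%. Without donor 2 these were 8 and 2, and without donor 3 they were 6 and 4. Of the 8 that fell 5 were of the fall route. With T3 15 members rose, against 6.63% of all genes, 12 of them of the rise route, and 5 fell, against 11.5%, a count that was 10 with donors as blocks or without donor 1, and 0 without donor 2 or donor 3. The change that names a route spans this step, so the counts by route are a description only.

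Because the members were chosen on all 3 donors, the rule was also applied to each pair of donors and read in the donor left out. It chose 73, 66 and 74 genes with donor 1, 2 or 3 left out, and their median IFNγ differences in the left-out donor were 0.98, 1.12 and 1.08 at 8 h and 0.20, 0.20 and 0.27 at 96 h. In that donor alone 36, 41 and 41 of them met both limits (49.3%, 62.1% and 55.4%), against 0.598%, 0.914% and 0.464% of all genes. Of the genes that the same pairs of donors placed in the comparison set 3.36%, 9.49% and 3.04% met both limits there. Of the 63 members 28 met the limits in all 3 donors, 23 in 2, 11 in 1 and Pakap in none, and 41 were chosen with each donor left out in turn. These counts read the 63 members in the arrays that chose them, so they are a description only. Members lost without donor 2 included Hopx, Pdgfa and Pdgfc, whose 96 h differences were then 0.77, 0.57 and 0.57.

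The limits cut through a continuous range. Just inside that of 8 h lay Pakap, Sfrp1 and Pla2g4a, all at 0.81, and just outside it Egln3 and Ppp1r16b at 0.80 and E2f2 at 0.79. At 96 h Pnpla2, Tstd1 and Washc4 lay just inside, at 0.49, and Klf4, Jak1 and Rerg just outside, at 0.50, 0.50 and 0.51. Klf4, a zinc finger factor, had a larger difference at 48 h (2.60) than any member, and Jak1 is the receptor kinase itself. Within 0.1 of the 8 h limit there were 11 members, and within 0.1 of the 96 h limit 15.

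More than 1 probe set was measured for 22 members, with 34 others in all. Of these 34, 30 had a positive 8 h difference, 12 were at or above 0.8 and 9 met both limits, in 5 members (Creg1, Crem, Edem1, Nrcam and Rnd3). Probe sets of Asah1, Col11a1 and Sfrp1 were at or above 0.8 at 8 h and above 0.5 at 96 h, with 0.73, 1.01 and 0.52.

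The members made up 0.443% of all 14217 genes, and a count of 0 in a list of the lengths given here is near that background. Of 37 measured interferon-stimulated genes 0 were members and 33 were in the comparison set, with 34 higher at 24 h, against 5.96% of all genes, and 35 at 48 h, against 7.58%. Irf1, whose product binds the ISRE, had IFNγ differences of 5.31, 5.87, 6.36 and 5.67 at the 4 times, and Socs1, the feedback inhibitor of the JAK kinases, 3.10, 3.38, 3.29 and 2.71. Of 19 antigen presentation genes 0 were members and 15 in the comparison set. Of 18 genes of the receptor, the JAK-STAT pathway and its inhibitors 0 were members and 7 in the comparison set, with 8 higher at 24 h and at 48 h 8 higher and 1 lower. Of 26 NF-kB genes 0 were members and 3 in the comparison set. Of 36 immediate early and MAPK feedback genes 2 were members (5.56%), Fos and Egr2, and 7 in the comparison set, with 11 higher and 1 lower at 24 h and 14 higher at 48 h. None of 33 measured myelin genes was a member.

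Markers of other cells moved with the treatment and with time. Of 19 microglia and macrophage markers 0 were members and 5 in the comparison set. With IFNγ 6 were higher at 24 h, against 5.96% of all genes, and 9 at 48 h, against 7.58%. The mean signal over the list was 7.18 to 8.34 on the T3+IFNγ arrays and 6.64 to 7.88 on the T3 arrays at 8 h, and 6.78 to 8.39 with T3+IFNγ against 5.20 to 5.64 with T3 at 96 h. Itgam and Cx3cr1 stayed at group means of 5.47 and 5.90 or less, and C1qa reached 9.73 with T3+IFNγ at 24 h, against 7.03 with T3. Aif1, a defining microglial marker, had means of 8.07, 8.75, 8.60 and 8.19 with T3+IFNγ at 8, 24, 48 and 96 h, against 7.74, 7.02, 5.95 and 5.04 with T3, and was called higher at 48 h (limma adjusted p = 0.0457). Lyz2, a lysozyme of macrophages, had IFNγ differences of 0.40, 3.25, 4.91 and 5.77 at the 4 times (limma adjusted p = 2.45e-04 at 24 h and 7.96e-07 at 48 h). The median IFNγ difference over the list was 0.37, 1.12, 1.89 and 2.21 at 8, 24, 48 and 96 h. In T3 cultures at 48 h 8 of the 19 markers were below PDGF, against 25.7% of all genes, and 0 above it (limma).

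In each of 4 other lists of cell markers at most 2 genes were called with IFNγ at either time. Over all genes 5.96% were higher and 6.35% lower at 24 h, and 7.58% and 8.53% at 48 h. Of 11 astrocyte markers 0 were members, Aldh1l1 was called higher at 24 h (1.76, limma adjusted p = 0.00991) and 48 h (1.53, adjusted p = 0.0208), and Fgfr3 was called lower at 24 h (−0.58, adjusted p = 0.0224). With T3 against PDGF 5 of the 11 were higher at 24 h and 4 at 48 h, against 17.1% and 17.5% of all genes. Of 14 neuron markers 0 were members, and Tubb3 was higher with IFNγ at both times and Nefm at 48 h. With T3 against PDGF 1 neuron marker was higher at 24 h, against 17.1% of all genes, and 3 were lower, against 17.8%. At 48 h 0 were higher, against 17.5%, and 7 were lower, against 25.7%. Of 14 vascular and fibroblast markers Kdr was a member, and it and Col1a2 were higher with IFNγ at 24 h and Acta2 was lower at 48 h. Of 12 T cell markers 0 were members, and Cd8a and Cd8b were higher with IFNγ at 48 h. The mean signal over the astrocyte list was 9.27 to 9.97 on the T3+IFNγ arrays and 8.95 to 9.78 on the T3 arrays at 24 h, and over the vascular list it was at most 4.60 on any array. The part of any of these cells in the members' signals was not tested.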

How the data were processed

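RNA of 27 rat OPC cultures was hybridised to Affymetrix arrays, 3 for each of 9 groups. The values used are log2 signals deposited by the authors, who made them with RMA per the labels' processing notes (background correction, quantile normalization and summary per probe set; version and chip definition not given in the sources used here). Of 31099 probe sets 20832 had 1 gene symbol, 436 several and 9831 none, and only those with 1 symbol were used. For each of 14217 genes the brightest probe set was kept. The replicate numbers were read as donors: deviations from group means had a median correlation of 0.31 within a number (108 pairs) and −0.18 between numbers (243 pairs). The highest correlation of any pair of arrays was 0.9967, so no array was a copy of another.

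Tests used limma 3.58.1 in R 4.3.3, with 1 mean per group over all 27 arrays and Benjamini-Hochberg adjustment over all genes at 0.05. Differences are T3+IFNγ minus T3. The 3 arrays per group limit the precision, and p-values measure the spread between these cultures. The main fit has no donor term, so that spread also holds differences between donors that T3+IFNγ and T3 cultures share. Counts and medians were made with pandas 2.3.3 and NumPy 2.4.6 (Python 3.11.15), and figures with matplotlib 3.10.9. The members and gene lists were chosen with earlier results of these data known. Values on every array or in a test are given for the 12 members with the largest 8 h difference, the 5 largest losses of each route, members of the lists, up to 6 called at 48 h in each direction, the 5 lowest at 96 h and those beside the limits. The other members are described for completeness and were named with their values known. Alternatives were the mean of all probe sets, array centring, quantile normalization, a filter on low signals, donors as a replicate block, trended robust moderation, other limits, and leaving out donors or 1 array (T3+IFNγ of donor 2 at 8 h or, chosen after seeing the data, at 24 h).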

Additional observations from a re-analysis of the deposited data

Results flagged for a closer look

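For 5 members the IFNγ difference at 48 h differed from that at 24 h by the limma interaction test over all genes, and each became smaller. The change was −1.44 for Pip5k1b (−1.4393, adjusted p = 0.0124), −1.40 for Kdr (−1.3993, adjusted p = 0.024), −1.51 for Dock9 (−1.5119, adjusted p = 0.00678), −0.99 for Six4 (−0.9869, adjusted p = 0.0246) and −1.50 for Pakap (−1.4964, adjusted p = 0.0246). In Pip5k1b and Kdr the T3 signal at 48 h had reached that of T3+IFNγ, and in Dock9 and Pakap it was above it. Without donor 2 the adjusted p was 0.576, 0.746, 0.57, 0.495 and 0.904 in this order of genes, and without donor 3 it was 0.191, 0.266, 0.063, 0.327 and 0.625. Without donor 1 the call was lost for Six4 (adjusted p = 0.0517), and with the mean of all probe sets for Kdr (−0.75, adjusted p = 0.12). Without the T3+IFNγ array of donor 2 at 24 h it was lost for Six4 (−0.93, adjusted p = 0.0819) and Pakap (−1.46, adjusted p = 0.0736). Adding donors as blocks lost none of the 5.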

How the results depend on the processing

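Of the results that are counts or medians of members, 202 values under the alternatives stayed near the reported one and 24 moved. A count stayed near if the larger value was at most 1 part in 2 above the smaller, so near allows a sizeable change. A median stayed near if it moved by less than the SD between the donors' medians. For single genes 1284 kept their side of the threshold, 99 lost it, 35 gained it and 0 turned round. Limits of 1.0 at 8 h and 0.3 at 96 h gave 26 members, and limits of 0.6 and 0.5 gave 123. With the mean of all probe sets the median difference of the members was 0.5633 at 24 h and 0.4780 at 48 h, and with low signals left out it was 0.7048 at 48 h. With a route named by more than one part in 2 of the loss, 0 members had both routes. With donors as a replicate block the numbers of members higher with IFNγ were 42 at 24 h and 38 at 48 h, 10 were lower at 48 h than at 24 h with T3, and no call was lost. Leaving out donors, or 1 of 2 arrays (that of T3+IFNγ at 24 h chosen after seeing the data), gave these ranges: 63 to 74 members, 32 to 44 of the fall route, 23 to 32 of the rise route and 4 to 6 of both. Members higher with IFNγ ranged from 22 to 37 at 24 h and from 20 to 39 at 48 h, and those lower at 48 h from 1 to 4. The IFNγ difference was larger at 48 h than at 24 h in 0 to 1 members and smaller in 0 to 6. With T3 against PDGF 14 to 20 were higher and 10 to 16 lower at 24 h, and 15 to 21 higher and 11 to 18 lower at 48 h. From 24 to 48 h, 6 to 14 were higher and 2 to 13 lower with T3+IFNγ, and 11 to 16 higher and 0 to 10 lower with T3. The median difference ranged from 0.6577 to 0.7597 at 24 h and from 0.50 to 0.6263 at 48 h. The cause of these shifts was not tested. Each fit without a donor has 2 arrays per group. Members under the median signal, 11 at their highest, lie where arrays resolve small differences poorly.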
